A study of Mus musculus with 8 samples.

Results

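The genes described here belong to the epidermal differentiation complex, a cluster on mouse chromosome 3 whose products build the outer shell of the skin surface. A gene was taken when a probe set carried its symbol alone in the platform annotation and the symbol began with Lce, Sprr or S100a followed by a number, or was one of the other named genes of the cluster (Ivl, Lor, Flg, Flg2, Rptn, Hrnr, Tchh, Tchhl1, Crct1, Crnn, Kprp, Smcp, Prr9 or Lelp1). Each gene was represented by 1 probe set, selected on the highest mean signal over the 8 arrays. This gave 48 genes of 18193 with such a probe set, from 59 matching probe sets. They comprised 11 Lce1 genes, 4 Lce3 genes, 2 Sprr1 genes, 6 Sprr2 genes, Sprr3, 5 fused S100 genes (Flg, Hrnr, Rptn, Tchh and Tchhl1), 7 single genes (Ivl, Lor, Crct1, Kprp, Smcp, Prr9 and Lelp1) and 12 S100a genes. The set itself was chosen by measured values, the day 6 differences between CSA and DMSO, among whose largest rises several Lce genes stood in an earlier look at the same arrays, so the values of that comparison are given as a description and nothing is supported with them.

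When a keratinocyte reaches the skin surface it replaces its plasma membrane with the cornified envelope, a layer of cross-linked protein beneath a coat of lipid. Involucrin (Ivl) is laid down early, loricrin (Lor) and the small proline-rich proteins (Sprr) are cross-linked onto it by transglutaminases, and the late cornified envelope proteins (Lce) are added last. The fused S100 proteins, such as filaggrin (Flg) and repetin (Rptn), join a calcium-binding S100 domain to long repeats, and the S100a proteins are small calcium sensors found in many cell types besides skin. Klf4, a regulator needed for the skin barrier, is also one of the reprogramming factors.

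The arrays measured total RNA from mouse cells of C57BL/6 background, labelled as reprogramming cells, in a secondary system in which doxycycline induces Oct4, Sox2, Klf4 and Myc (OSKM). All 4 groups received doxycycline, written as 2 mg/ml in the labels, in embryonic stem cell medium with 15% FBS and 100 units/ml leukemia inhibitory factor. Cells with DMSO or with CSA were taken at day 3 and at day 6, which makes 4 groups of 2 arrays, described by the submitters as independent biological repeats; CSA, cyclosporin A, inhibits the calcineurin-NFAT pathway and its concentration is written as 10 mM. No label names the starting cell type or the promoter behind the inducible factors. The question the design poses is which transcripts differ between DMSO and CSA at each day.

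The promoter sequences of the members that carry the results are shown first, so that the sub-families can be compared by their upstream letters as well as by their signals. They are RefSeq sequences of the GRCm38.p6 build, written 5′ to 3′ on the strand of the gene and ending at the base before the annotated start. Capitals mark TGANTCA (the site of AP-1 factors), TATAAA (the box named after these letters, near which transcription starts), ATGCAAAT (the octamer, bound by POU factors) on either strand, and, in Lce1 genes, the 10 letters ACTGTCTCAC.
Lce1d, chr3:92687211-92687310, minus strand: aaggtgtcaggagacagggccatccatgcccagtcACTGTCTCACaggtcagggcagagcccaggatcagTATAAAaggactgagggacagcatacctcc
Lce1a1, chr3:92648308-92648407, minus strand: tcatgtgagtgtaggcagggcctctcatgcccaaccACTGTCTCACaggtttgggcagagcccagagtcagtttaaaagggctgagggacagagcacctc
Lce1a2, chr3:92670316-92670415, minus strand: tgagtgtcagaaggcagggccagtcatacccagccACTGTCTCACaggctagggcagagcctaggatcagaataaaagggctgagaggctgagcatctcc
Lce1h, chr3:92765066-92765165, minus strand: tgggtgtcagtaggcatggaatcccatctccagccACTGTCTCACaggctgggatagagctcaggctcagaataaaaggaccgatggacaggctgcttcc
Lce3b, chr3:92932879-92932978, plus strand: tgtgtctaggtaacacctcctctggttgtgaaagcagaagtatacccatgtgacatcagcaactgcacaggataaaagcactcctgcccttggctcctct
Lce3c, chr3:92944386-92944485, plus strand: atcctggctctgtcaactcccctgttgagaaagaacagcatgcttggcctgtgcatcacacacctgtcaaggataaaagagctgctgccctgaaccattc
Sprr1a, chr3:92485882-92486041, minus strand: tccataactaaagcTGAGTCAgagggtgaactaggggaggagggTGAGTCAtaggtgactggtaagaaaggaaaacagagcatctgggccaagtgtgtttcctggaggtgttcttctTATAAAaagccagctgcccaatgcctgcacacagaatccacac
Sprr2h, chr3:92385485-92385684, plus strand: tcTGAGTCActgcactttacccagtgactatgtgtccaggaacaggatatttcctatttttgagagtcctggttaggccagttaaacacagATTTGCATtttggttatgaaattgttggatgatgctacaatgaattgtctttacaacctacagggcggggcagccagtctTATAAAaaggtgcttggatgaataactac
Ivl, chr3:92573736-92573855, minus strand: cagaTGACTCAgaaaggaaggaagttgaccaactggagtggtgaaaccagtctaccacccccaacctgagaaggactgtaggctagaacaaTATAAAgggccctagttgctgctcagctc
S100a16, chr3:90537154-90537253, plus strand: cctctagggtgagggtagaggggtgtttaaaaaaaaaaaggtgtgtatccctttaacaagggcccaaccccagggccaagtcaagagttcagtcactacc

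RefSeq gave a promoter for 42 of the 48 members, and 250 bases before the start were searched on both strands. All 8 Sprr promoters held TATAAA, against 2 of 14 Lce, 6 of 10 fused S100 or single genes and 3 of 10 S100a promoters; 13% of the 27025 promoters in the table held it. The AP-1 letters TGANTCA were in 7 of 8 Sprr promoters, all but that of Sprr3, in 6 of 10 promoters of fused S100 and single genes, in 1 of 10 S100a promoters and in 0 of 14 Lce promoters, against 6.85% of all promoters. The octamer ATGCAAAT was in all 5 Sprr2 promoters and in no other member promoter, against 1.6% of all promoters. Promoters with both the AP-1 and the TATA letters were those of every Sprr gene except Sprr3, and those of Lor, Prr9, Ivl, Flg, Rptn and S100a7l2.

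Upstream sequence was most alike within the Lce1 group. Over the last 100 bases before the start, pairs of Lce1 promoters shared a median of 73.8% of bases (45 pairs), pairs of Sprr2 promoters 68.3% (10 pairs), pairs of Lce3 promoters 60.8% (6 pairs) and Lce1 with Lce3 promoters 51.3% (40 pairs). S100a pairs shared 47.9% (45 pairs), near the 49.6% between Lce and S100a promoters. The 10 letters ACTGTCTCAC were picked out after the sequences were seen, as a run found in the most Lce1 promoters. Searched on the strand of the gene only, they lay 64 or 65 bases before the start in 7 of 10 Lce1 promoters (Lce1a1, Lce1a2, Lce1b, Lce1d, Lce1g, Lce1h and Lce1i). They were in 0 of 4 Lce3 and 0 of 28 other member promoters, and in 31 of all 27025, the 7 Lce1 promoters included. The letters GGAAA, the core of an NFAT site, were in 24 of 42 members and 55.6% of all promoters, and CACCC, bound by Klf factors, in 22 of 42 and 51.3%. A match is a description of letters and was not tested for binding.

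The values are log2 signals deposited by the authors, 1 per probe set and array, and the 2 arrays of a group are given in the order of their replicate numbers. Probe sets were tested if their mean over all arrays reached 5.37, the 40th percentile. Of the 48 members, 32 were tested, and 25 of these had all 4 group means at or above that value. Lce3c and Sprr2h passed only with the CSA day 6 arrays counted in. The 16 members below it were Lce1c, Lce1g, Lce1l, Lce1m, Sprr2f, Sprr2i, Sprr2j-ps, Flg, Hrnr, Tchhl1, Prr9, Lelp1, Smcp, S100a5, S100a7l2 and S100a8. Because this filter favours genes raised in 1 group, counts over sub-families are taken from a second fit with no filter that holds all 48 members, and single genes carry their values from the filtered fit unless stated. All p-values are from limma, adjusted over every probe set in the fit, with a threshold of 0.05.

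Replicate arrays correlated at 0.968 to 0.974. This is 1 value per pair, so it cannot show which array of a pair deviates. Markers of simple epithelium (Krt8, Krt18, Krt19, Cdh1, Epcam and Cldn4) and of fibroblasts (8 of 8, collagens among them) were all above the filter. Of 8 basal keratinocyte markers 5 were above it (Krt14, Itga6, Itgb4, Col17a1 and Lamb3), and the defining genes Krt5, Krt15 and Trp63 were below on their mean. Krt5 and Trp63 still read above it in some arrays. In such bulk samples fewer cells of a kind and less RNA per cell cannot be told apart.

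At day 6, 18 of the 36 members outside the S100a family were higher under CSA past the threshold, among them 11 of 15 Lce genes, and 3 of 12 S100a genes were lower. In the fit without a filter, from which these counts come, 18 of all 48 members were thus higher and 3 lower, against 3.9% and 3.56% of all genes. All 15 Lce genes had a positive difference and 11 passed, with a median of 3.16 on the log2 scale, against 0.02 over all 18193 genes. All 9 Sprr genes had a positive difference and 3 passed (median 2.06), 3 of 7 single genes and 1 of 5 fused S100 genes passed, and of the 12 S100a genes 0 were higher and 3 lower (median 0.01). With the filter, 17 of the 32 tested members were higher and 3 lower, against 6.41% and 6.11% of tested genes. This comparison is the one that drew attention to the set, so nothing is read from these shares.

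The Lce1 genes encode small glycine- and cysteine-rich proteins added late to the envelope. Lce1d read 5.65 and 6.60 in the day 6 DMSO arrays and 10.09 and 10.00 under CSA, a log2 difference of 3.92 ± 0.31 (moderated SE) or 15.1-fold (adjusted p = 2.92e-05). Lce1a1 read 6.85 and 6.54 in DMSO and 9.78 and 9.94 under CSA, a difference of 3.16 ± 0.26 (adjusted p = 4.58e-05). Lce1f read 5.37 and 5.70 in DMSO and 8.89 and 8.72 under CSA, a difference of 3.27 ± 0.34 (adjusted p = 0.000201). In each of these genes the 2 CSA arrays lay close to each other and far above both DMSO arrays. Lce1a2 read 5.43 and 5.18 in DMSO and 8.53 and 7.99 under CSA (2.95 ± 0.40, adjusted p = 0.000935), and Lce1b read 5.02 and 5.43 in DMSO and 7.48 and 7.92 under CSA (2.47 ± 0.44, adjusted p = 0.00534). Lce1h read 4.76 and 6.42 in DMSO and 9.46 and 9.13 under CSA (3.71 ± 0.80, adjusted p = 0.0144). Its DMSO arrays lay far apart, and without DMSO day 6 replicate 1 the difference was 2.88 with an adjusted p of 0.115; without either CSA day 6 array the adjusted p was also above the threshold, at 0.0771 and 0.0667. Without CSA day 6 replicate 2, Lce1b had a difference of 2.25 and an adjusted p of 0.0696.

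Lce1i, the other tested Lce1 gene, read 5.06 and 6.84 in DMSO and 8.69 and 8.33 under CSA, and did not pass (2.56 ± 0.84, adjusted p = 0.0842). Of the 4 dim Lce1 genes, Lce1c read 2.20 and 1.22 in DMSO and 7.77 and 7.08 under CSA, and passed in the fit without a filter (adjusted p = 0.0213). Lce1m (1.61 and 5.46 in DMSO, 7.36 and 7.73 under CSA), Lce1l (1.42 and 0.00 in DMSO, 5.33 and 4.18 under CSA) and Lce1g (4.72 and 5.26 in DMSO, 5.61 and 5.97 under CSA) were higher in both CSA arrays than in both DMSO arrays without passing. Values this low lie in the range where a log2 signal is set largely by background. The size of a difference from them has little meaning.

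The Lce3 genes form the other Lce group on these arrays; their human counterparts are induced when the skin barrier is injured. Lce3a read 6.12 and 5.27 in DMSO and 8.82 and 8.77 under CSA (3.10 ± 0.46, adjusted p = 0.00166). Lce3f read 6.19 and 6.63 in DMSO and 9.17 and 9.15 under CSA (2.75 ± 0.43, adjusted p = 0.00211). Lce3b read 6.75 and 7.86 in DMSO and 9.35 and 9.29 under CSA (2.01 ± 0.30, adjusted p = 0.0017). All 4 Lce3 genes were higher in both CSA arrays, and the 2 CSA arrays of each gene lay close together. Lce3c read 7.43 and 3.96 in DMSO and 9.87 in both CSA arrays (4.18 ± 0.96, adjusted p = 0.0191). Its 2 DMSO arrays were far apart, and without DMSO day 6 replicate 2 the difference was 2.44 with an adjusted p of 0.115; without either CSA array the adjusted p was 0.0876 and 0.101. The median of the 15 Lce genes was 5.37 and 5.46 in the day 6 DMSO arrays and 8.82 and 8.72 in the day 6 CSA arrays. In all 15 the arrays of the 2 groups did not overlap, with CSA higher, as was so for 26.6% of all genes.

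**Figure D1:**
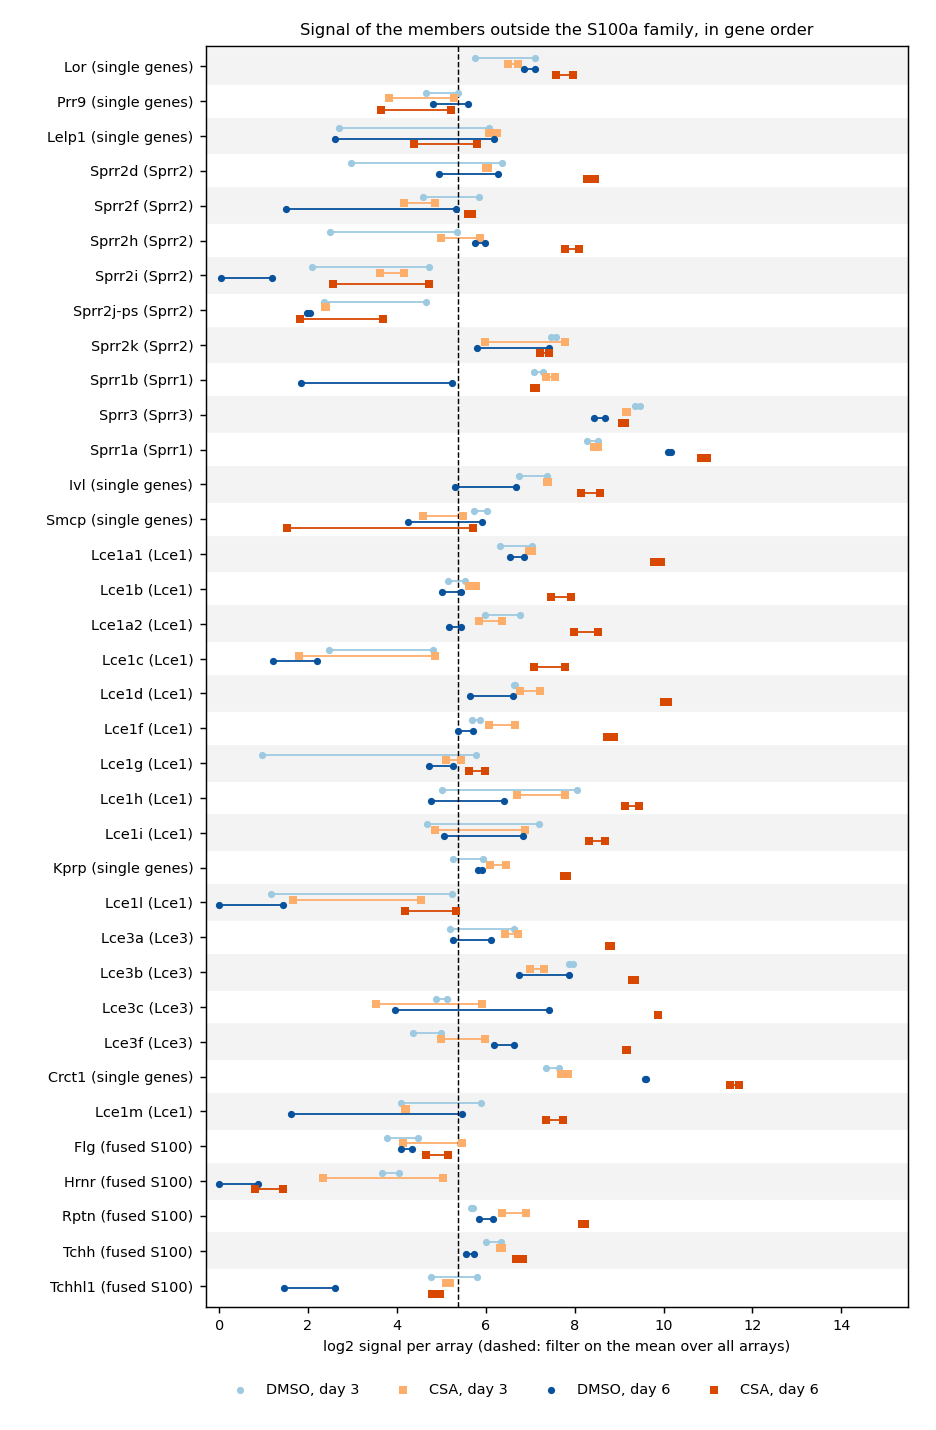
Log2 signal (horizontal axis) of each of the 36 members outside the S100a family on each of the 8 arrays, in gene order from top to bottom; the 2 points joined by a line are the arrays of 1 group, and the dashed line is the filter on the mean at 5.37. In Lce1d the CSA day 6 arrays sit at 10.09 and 10.00 and the other 6 arrays between 5.65 and 7.22, and in all 15 Lce genes both CSA day 6 arrays lie above both DMSO day 6 arrays.

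Several Lce probe sets can read more than 1 gene. In 7 of the 15 Lce genes (Lce1a1, Lce1d, Lce1h, Lce1i, Lce3b, Lce3c and Lce1m) the platform's suffix marks probes shared with other transcripts, and signal from these near-identical genes cannot be fully assigned. The other 8 Lce genes, among them Lce1a2, Lce1b, Lce1f, Lce3a and Lce3f, carry no such mark. Lce1a1 has a second probe set without the mark, which read 6.92 and 5.68 in DMSO and 9.65 and 9.53 under CSA, a difference of 3.29 that also passed. A second, dim probe set for Lce1f, below the filter, differed by 0.67.

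The Sprr proteins are cross-linked bridges of the envelope. Sprr1a read 10.11 and 10.16 in DMSO at day 6 and 10.84 and 10.98 under CSA, a difference of 0.78 ± 0.12 or 1.71-fold (adjusted p = 0.00223). Sprr3 read 8.44 and 8.69 in DMSO and 9.06 and 9.12 under CSA (0.53 ± 0.13, adjusted p = 0.0287). Both rises were small beside those of the Lce genes. Without DMSO day 6 replicate 1 the difference of Sprr3 was 0.40 (adjusted p = 0.188), and without CSA day 6 replicate 1 or 2 its adjusted p was 0.0749 and 0.127. Sprr1b read 5.24 and 1.84 in DMSO and 7.08 and 7.13 under CSA (3.57 ± 0.80, adjusted p = 0.017). The size of that difference rests on 1 array: without DMSO day 6 replicate 2 it was 1.87 (adjusted p = 0.0143), and without CSA day 6 replicate 1 or 2 the adjusted p was 0.072 and 0.0872.

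None of the 6 Sprr2 genes passed with limma, though 3 of them had an unadjusted p under 0.05 in the fit without a filter. Sprr2d read 4.95 and 6.26 in DMSO and 8.27 and 8.46 under CSA (2.76 ± 0.86, adjusted p = 0.0698). Sprr2h read 5.77 and 5.98 in DMSO and 8.10 and 7.77 under CSA (2.06 ± 0.78, adjusted p = 0.132). In both genes the CSA arrays lay above the DMSO arrays, and 1 DMSO array at day 3 was low (2.96 in Sprr2d and 2.50 in Sprr2h). The probe set of Sprr2h carries a suffix for probes shared with other transcripts, so its signal cannot be fully assigned. Sprr2k read 5.81 and 7.41 in DMSO and 7.21 and 7.43 under CSA, and its groups overlapped (0.71 ± 0.57, adjusted p = 0.508). Sprr2f, Sprr2i and the pseudogene Sprr2j-ps were below the filter, with day 6 differences of 2.23, 3.02 and 0.74.

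Among the single genes, involucrin (Ivl), the scaffold on which the envelope is built, read 5.30 and 6.68 in DMSO and 8.14 and 8.57 under CSA (2.37 ± 0.41 or 5.15-fold, adjusted p = 0.00422). Crct1, a small cysteine-rich protein encoded beside the Lce3 genes, read 9.60 and 9.59 in DMSO and 11.49 and 11.70 under CSA (2.00 ± 0.14 or 4.01-fold, adjusted p = 1.87e-05). Kprp, a proline-rich keratinocyte protein, read 5.92 and 5.83 in DMSO and 7.84 and 7.75 under CSA (1.92 ± 0.38, adjusted p = 0.00922). The 3 genes were higher in both CSA arrays. The call of Kprp was lost without DMSO day 6 replicate 2 (adjusted p = 0.0563) and without CSA day 6 replicate 1 (0.0622) or 2 (0.0605). Loricrin (Lor), the main protein of the epidermal envelope, read 7.10 and 6.86 in DMSO and 7.96 and 7.58 under CSA, and did not pass (0.79 ± 0.40, adjusted p = 0.266). Its other probe sets, below the filter, differed by 2.78 and -0.23. Prr9, Lelp1 and Smcp, the last a protein of the sperm mitochondrial sheath, were below the filter and their groups overlapped.

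Of the fused S100 genes, repetin (Rptn) read 5.84 and 6.15 in DMSO and 8.17 and 8.24 under CSA (2.21 ± 0.33 or 4.63-fold, adjusted p = 0.00175). A second tested Rptn probe set differed by 0.34 and did not pass, and with the probe sets of a gene averaged the Rptn difference was 1.27 (adjusted p = 0.115). Trichohyalin (Tchh), of the inner root sheath of hair, read 5.74 and 5.56 in DMSO and 6.84 and 6.68 under CSA and did not pass (1.11 ± 0.38, adjusted p = 0.0965). Filaggrin (Flg) read 4.08 and 4.34 in DMSO and 4.66 and 5.16 under CSA. Hornerin (Hrnr) read 0.00 and 0.88 in DMSO and 0.80 and 1.44 under CSA. Tchhl1 read 1.46 and 2.61 in DMSO and 4.78 and 4.96 under CSA. These 3 genes were below the filter, and none passed in the fit without one.

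None of the 12 S100a genes was called higher at day 6 with limma, and 3 were lower. S100a16 read 12.98 in both DMSO arrays at day 6 and 12.11 and 12.03 under CSA; it fell by 0.92 ± 0.06 on the log2 scale (0.53-fold, adjusted p = 1.77e-05), and its second probe set also passed, with a difference of -0.91. S100a14 read 10.80 and 10.96 in DMSO and 9.98 and 10.11 under CSA (-0.83 ± 0.13, adjusted p = 0.00269). S100a3, known from the hair cuticle, read 10.58 and 10.56 in DMSO and 9.72 and 10.04 under CSA (-0.69 ± 0.11, adjusted p = 0.00276). In these 3 of the 12 S100a genes both CSA arrays were below both DMSO arrays. In 3 other S100a genes both CSA arrays were above both DMSO arrays, as was so for 26.6% of all genes. Beside the 3 lower S100a genes, 4 of 6 simple epithelium markers were lower past the threshold under CSA at day 6 and 0 were higher. The 4 were Krt8, Krt19, Cdh1 and Epcam, lower by 0.50 to 0.69. Krt18 (0.39) and Cldn4 (0.07) had positive differences that did not pass. Of all tested genes, 6.11% were lower and 6.41% higher. The summed signal of the 6 markers at day 6 was 15.25 to 15.34 in DMSO and 14.84 under CSA on the log2 scale. At day 3, 3 of the 6 markers were higher past the threshold and 1 lower, against 7.14% and 5.52% of tested genes. Their part in the result was not tested.

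The other S100a genes showed no change past the threshold at day 6. S100a4, linked to cell motility, read 13.38 and 13.27 in DMSO and 13.48 and 13.50 under CSA (0.16 ± 0.06, adjusted p = 0.143). S100a6 read 14.20 and 14.17 in DMSO and 14.12 and 14.25 under CSA (0.00 ± 0.06). S100a1, S100a13 and S100a10, the partner of annexin A2, had differences of -0.11, 0.01 and -0.04. S100a9, which with S100a8 forms the antimicrobial complex calprotectin, read 5.68 and 5.88 in DMSO and 6.64 and 6.82 under CSA (0.95 ± 0.41, adjusted p = 0.183). S100a8 read 3.51 and 0.37 in DMSO and 4.56 and 5.16 under CSA and was below the filter. Both calprotectin genes were higher in both CSA arrays without passing. Of 9 measured myeloid markers, the cells that carry calprotectin in blood, Ptprc, Itgam, Elane and Fcgr3 were below the filter, and of the 5 tested ones limma called 0 at day 3 and 0 at day 6 (unadjusted p under 0.05 in 0 of them); their summed log2 signal at day 6 was 8.81 to 8.93 in DMSO and 9.18 to 9.20 under CSA. S100a5 and S100a7l2 were below the filter.

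**Figure D2:**
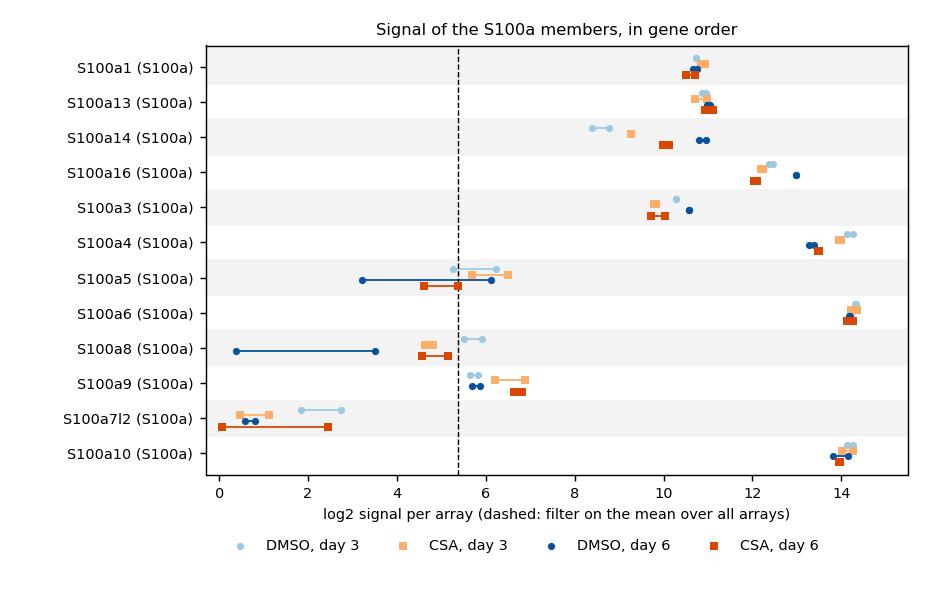
Log2 signal (horizontal axis) of the 12 S100a members on each of the 8 arrays, in gene order from top to bottom; joined points are the 2 arrays of a group and the dashed line is the filter on the mean at 5.37. In S100a16 the DMSO day 6 arrays, at 12.98, are the highest of the 8, and in S100a14 CSA lies above DMSO at day 3 and below it at day 6.

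At day 3 the envelope genes of the complex showed no change past the threshold. In the fit without a filter 0 of the 36 members outside the S100a family passed with limma, against 4.35% of all genes higher and 3.12% lower; 2 had an unadjusted p under 0.05, and their median difference was 0.23 on the log2 scale, against -0.02 over all genes. Among the 12 S100a genes 1 was higher and 1 lower. With the filter, 1 of the 32 tested members was higher and 1 lower, against 7.14% and 5.52% of tested genes. The median of the 15 Lce genes was 5.53 and 5.77 in the DMSO arrays and 5.85 and 6.36 in the CSA arrays.

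At day 3 the replicate arrays of some Lce genes lay far apart, as in Lce1h, which read 5.02 and 8.06 in DMSO and 6.70 and 7.78 under CSA. Those of Lce1i (7.2 and 4.67 in DMSO, 4.87 and 6.88 under CSA) were also spread and overlapped. In other Lce genes they lay closer. Lce1d read 6.64 and 6.65 in DMSO and 6.77 and 7.22 under CSA (0.35 ± 0.31, adjusted p = 0.562), and Lce1a1 read 7.03 and 6.32 in DMSO and 7.03 and 6.97 under CSA (0.33 ± 0.26, adjusted p = 0.516). Lce1f read 5.70 and 5.87 in DMSO and 6.08 and 6.65 under CSA (0.58 ± 0.34, adjusted p = 0.347). The CSA arrays were no lower than the higher DMSO array in Lce1d and Lce1f, and the groups met in Lce1a1. Lce3b ran the other way, at 7.88 and 7.97 in DMSO and 7.30 and 7.0 under CSA, without passing (-0.77 ± 0.30, adjusted p = 0.143). Differences of the other tested Lce genes ran from -0.27 in Lce3c to 0.81 in Lce3f, none past the threshold.

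The remaining envelope genes were likewise not called at day 3. Ivl read 6.75 and 7.38 in DMSO and 7.38 and 7.39 under CSA (0.32 ± 0.41), Crct1 read 7.36 and 7.64 in DMSO and 7.69 and 7.85 under CSA (0.27 ± 0.14, adjusted p = 0.274), and Sprr1a read 8.28 and 8.53 in DMSO and 8.43 and 8.52 under CSA (0.07 ± 0.12). Rptn, at 5.70 and 5.66 in DMSO and 6.89 and 6.37 under CSA, had the smallest p of these genes (0.95 ± 0.33, adjusted p = 0.104). Kprp read 5.26 and 5.93 in DMSO and 6.10 and 6.46 under CSA (0.69 ± 0.38), and both its CSA arrays were above both DMSO arrays. Lor, Tchh, Sprr1b, Sprr3, Sprr2d, Sprr2h and Sprr2k had differences from -0.65 in Sprr2k to 1.5 in Sprr2h.

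The 2 members called at day 3 were S100a14 and S100a3. S100a14 read 8.77 and 8.39 in DMSO and 9.27 and 9.26 under CSA, so it was higher under CSA by 0.69 ± 0.13 (1.61-fold, adjusted p = 0.00813), opposite to day 6. S100a3 read 10.27 in both DMSO arrays and 9.82 and 9.78 under CSA (-0.47 ± 0.11, adjusted p = 0.0212), the same direction as at day 6. The groups did not overlap in either gene. This was common at day 3: of the 12 S100a genes, 3 lay higher and 5 lower under CSA without overlap. Neither call was stable: that of S100a14 was lost without either CSA day 3 array (adjusted p = 0.0569 and 0.0568) and that of S100a3 without any 1 of the 4 day 3 arrays (up to 0.127). S100a16 read 12.38 and 12.45 in DMSO and 12.24 and 12.20 under CSA (-0.20 ± 0.06, adjusted p = 0.0795), and S100a4 14.26 and 14.13 in DMSO and 13.94 and 14.00 under CSA (-0.22 ± 0.06, adjusted p = 0.0515). S100a9 read 5.64 and 5.82 in DMSO and 6.20 and 6.87 under CSA (0.80 ± 0.41). S100a1 (10.72 and 10.73 in DMSO, 10.93 and 10.85 under CSA) and S100a6 (14.33 and 14.31 in DMSO, 14.35 and 14.22 under CSA) did not pass.

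**Figure D3:**
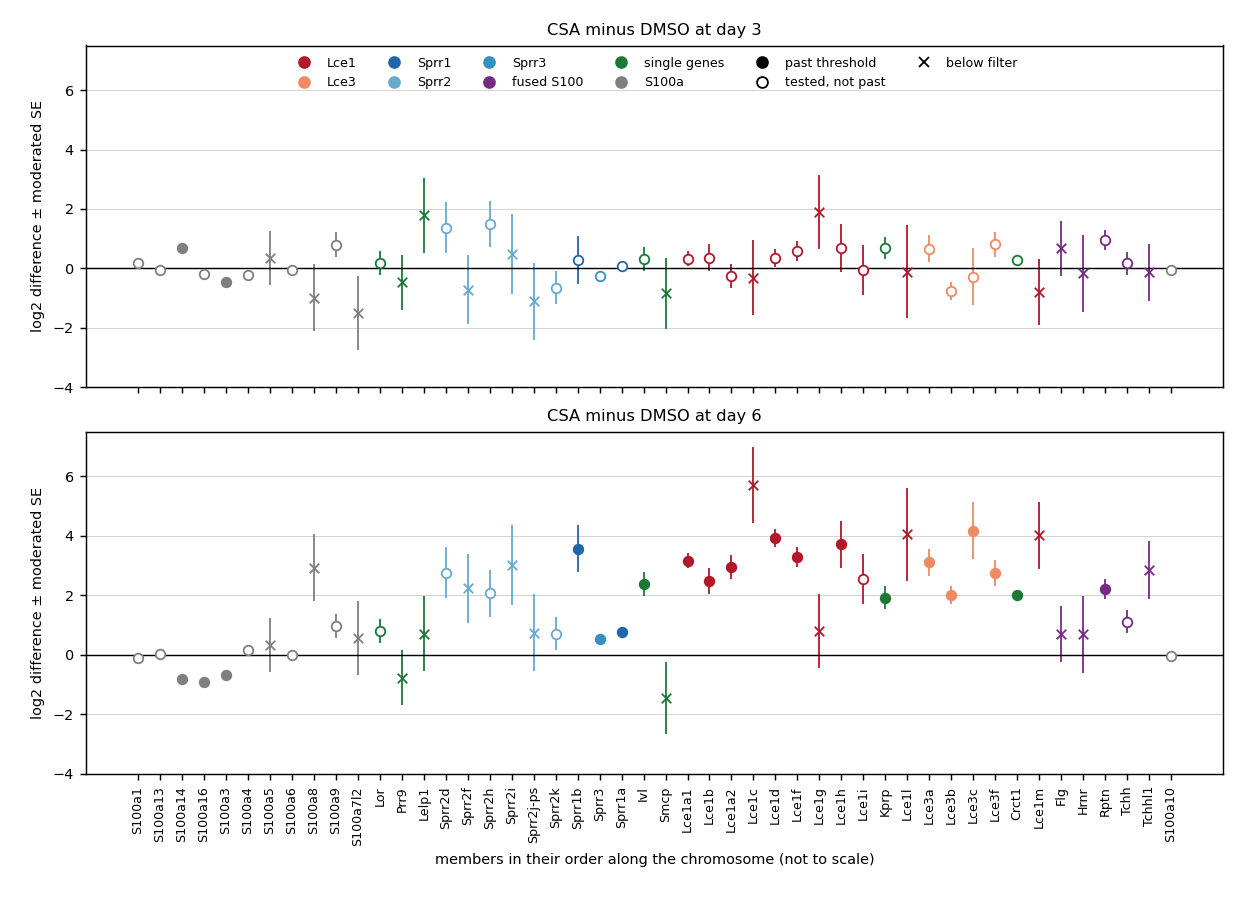
Log2 difference between CSA and DMSO (vertical axis, with moderated standard errors) at day 3 (top) and day 6 (bottom) for all 48 members in their order along the chromosome; filled circles passed the threshold, open circles did not, and crosses were below the filter, with values from the fit without one. At day 6 the run from Ivl to Crct1 lies mostly between 2 and 4 on the log2 scale, while S100a14, S100a16 and S100a3 lie below 0.

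The difference between the CSA effects at the 2 days was itself tested. Of the 32 tested members, 9 had a larger CSA effect at day 6 and 2 a lower one, against 2.36% and 3.43% of tested genes; without a filter the counts were 6 and 2 of 48, against 1.29% and 1.89%. This test shares its day 6 arrays with the comparison that drew attention to the set. Of the 15 Lce genes 5 passed in both fits, with differences between the effects of 3.57 ± 0.43 in Lce1d (adjusted p = 0.00186), 3.22 ± 0.56 in Lce1a2, 2.83 ± 0.37 in Lce1a1, 2.78 ± 0.42 in Lce3b and 2.69 ± 0.48 in Lce1f. Crct1 also passed, with 1.73 ± 0.20 (adjusted p = 0.00143). Sprr3 (0.78), Sprr1a (0.71) and S100a4 (0.39) had adjusted p-values between 0.0381 and 0.0434. These calls were lost when no filter was used and in most fits with 1 array left out. Over the alternatives the values ran from 0.65 to 0.90 in Sprr3, from 0.58 to 0.83 in Sprr1a and from 0.30 to 0.46 in S100a4. The S100a genes S100a14 (-1.52 ± 0.19, adjusted p = 0.00197) and S100a16 (-0.72 ± 0.09, adjusted p = 0.0021) had a lower CSA effect at day 6. Left out 1 at a time, CSA day 3 replicate 1 brought the count of 11 calls to 7, CSA day 6 replicate 1 to 6 and CSA day 6 replicate 2 to 7; that of Lce1f was lost in all 3 cases and that of Lce1a2 without CSA day 6 replicate 1. These calls all depended on the intensity trend in limma's prior: without it 0 of the 32 members and 0 of all 27022 tested probe sets passed, while 19 members had an unadjusted p under 0.05.

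Day 6 was also set against day 3 within each treatment. In DMSO 5 members were higher at day 6 and 3 lower of the 32 tested, against 26.1% and 19.6% of tested genes. Without a filter 5 of all 48 were higher and 5 lower, against 16.9% and 12.9% of all genes. Over all tested probe sets the median moved by 0.10 between the days in DMSO and by 0.12 under CSA as deposited, and by -0.03 in each after quantile normalization, so changes with day smaller than this shift have no settled direction; S100a6 turned from -0.13 to 0.09. With that normalization the DMSO split was 5 higher and 6 lower.

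The 5 members that rose with day in DMSO were Crct1, Sprr1a, S100a14, S100a16 and Lce3f. Crct1 went from 7.36 and 7.64 at day 3 to 9.60 and 9.59 at day 6 (2.10 ± 0.14), and Sprr1a from 8.28 and 8.53 to 10.11 and 10.16 (1.73 ± 0.12). S100a14 went from 8.77 and 8.39 to 10.80 and 10.96, and S100a16 from 12.38 and 12.45 to 12.98 in both (0.57 ± 0.06). Lce3f went from 5.0 and 4.36 to 6.19 and 6.63 (1.73 ± 0.43, adjusted p = 0.00702), and its call was lost without DMSO day 6 replicate 2 (1.51, adjusted p = 0.0582). In the fit without a filter Lce3f was the 1 of 15 Lce genes called. S100a10 was not called by its brightest probe set (-0.21). Its other tested probe sets passed in opposite directions, at 1.53 and -0.28 in DMSO and at 1.34 and -0.16 under CSA.

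The members that fell with day in DMSO were S100a4, Sprr3 and Sprr1b, and without a filter also the dim S100a8 and Tchhl1. S100a4 went from 14.26 and 14.13 to 13.38 and 13.27 (-0.87 ± 0.06), and Sprr3 from 9.35 and 9.48 to 8.44 and 8.69 (-0.85 ± 0.13). Sprr1b went from 7.08 and 7.29 to 5.24 and 1.84 (-3.64 ± 0.80, adjusted p = 0.00354; -1.95 without DMSO day 6 replicate 2). The Sprr genes thus moved in both directions: Sprr1a rose while Sprr1b and Sprr3 fell. Ivl went from 6.75 and 7.38 to 5.30 and 6.68 without passing (-1.07 ± 0.41, adjusted p = 0.0554).

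Under CSA 17 of the 32 tested members were higher at day 6 and 2 lower, against 20.2% and 15.8% of tested genes, and without a filter 16 of 48 were higher and 2 lower, against 12.7% and 9.91% of all genes; the comparison uses the same CSA day 6 arrays as above. Crct1 went from 7.69 and 7.85 to 11.49 and 11.70 (3.82 ± 0.14, 14.2-fold), and Sprr1a from 8.43 and 8.52 to 10.84 and 10.98 (2.44 ± 0.12). Lce1d went from 6.77 and 7.22 to 10.09 and 10.00 (3.06 ± 0.31), and 11 of the 15 Lce genes passed in the fit without a filter. Sprr1b (-0.35 ± 0.80) and Sprr3 (-0.07 ± 0.13), which fell in DMSO, did not pass under CSA. S100a14 was higher by 0.78 ± 0.13, and S100a4 (-0.48 ± 0.06) and S100a1 (-0.29 ± 0.09, adjusted p = 0.035) were lower; without CSA day 6 replicate 2 the S100a1 value was -0.19 (adjusted p = 0.221). Lor (1.16, adjusted p = 0.0477) and Sprr2h (2.51, adjusted p = 0.0313) were called here, and both calls were lost without a filter and when either CSA day 3 or either CSA day 6 array was left out.

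**Figure D4:**
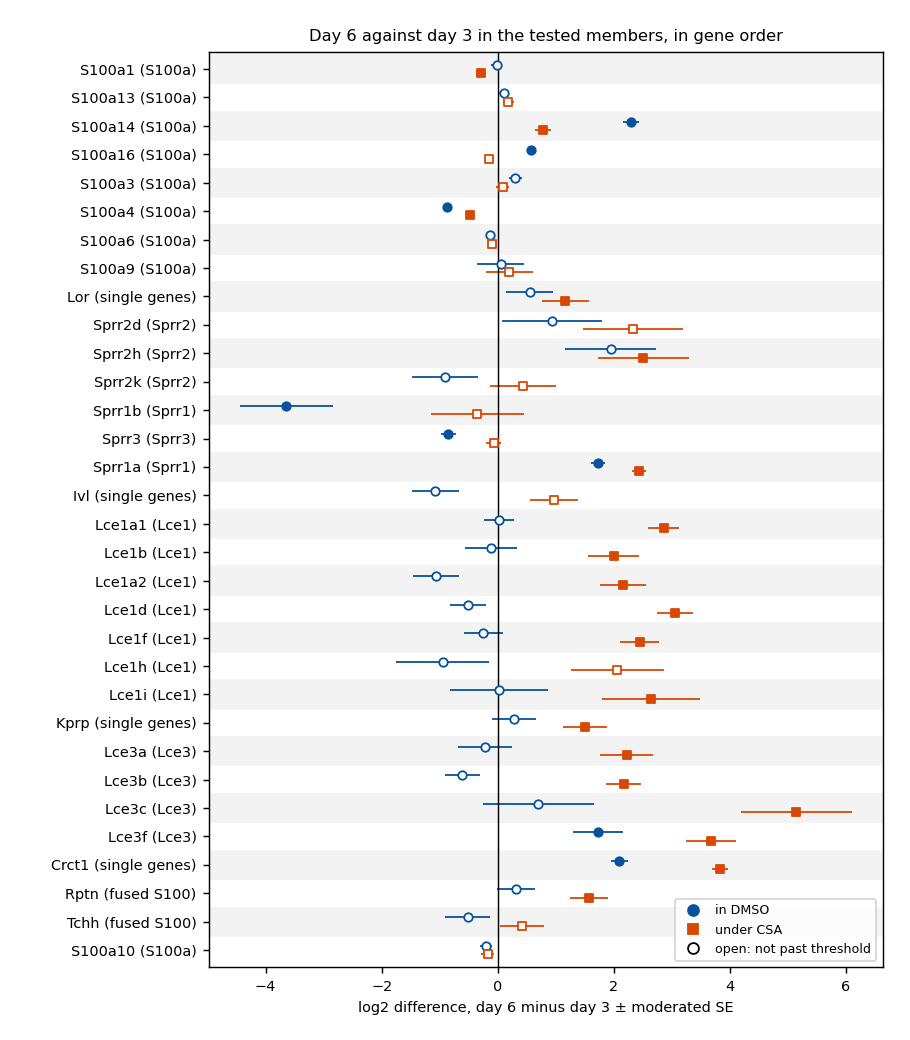
Log2 difference between day 6 and day 3 (horizontal axis, with moderated standard errors) of the 32 tested members, in DMSO (blue circles) and under CSA (orange squares), in gene order from top to bottom; open symbols did not pass the threshold. Crct1 rose by 2.10 in DMSO and 3.82 under CSA, and Lce1d had -0.52 in DMSO and 3.06 under CSA.

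All 48 members matched a reference gene on chromosome 3, and in gene order they lay in a single stretch of 101 annotated genes, 70 of them protein-coding, from S100a1 to S100a10. The S100a genes lie mainly at 1 end, followed by Lor, the Sprr genes, Ivl, the Lce genes with Kprp and Crct1 among them, and the fused S100 genes, with S100a10 at the far end. The 17 members higher at day 6 in the filtered fit all lay between Sprr1b and Rptn, and the 3 lower ones were consecutive members among the S100a genes. In the stretch 1 other gene had a probe set of its own, 2310050C09Rik; it was below the filter, at 3.23 and 1.04 in DMSO and 4.29 and 4.55 under CSA at day 6. Of the 10 tested genes nearest to the stretch, 5 on each side, Them5, an acyl-CoA thioesterase gene, passed at day 6, and it was lower under CSA (-1.29, adjusted p = 0.000584). None of the 10 was called higher at day 6.

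Envelope and cornification genes that lie elsewhere in the genome moved in both directions. At day 6, 6 of 16 tested were higher and 3 lower under CSA, with a median of 0.72. Over all tested genes the shares were 6.41% higher and 6.11% lower at day 6, and 7.14% higher and 5.52% lower at day 3. The protease Asprv1, which processes filaggrin, read 10.21 and 10.37 in DMSO and 12.30 and 12.17 under CSA (1.94 ± 0.10, adjusted p = 2.28e-06). The protease inhibitor Cst6 read 8.06 and 8.40 in DMSO and 9.86 and 10.17 under CSA (1.79 ± 0.28). Keratin 1 (Krt1), of the suprabasal layers, read 7.57 and 7.52 in DMSO and 9.03 and 9.29 under CSA (1.62 ± 0.27), and cornifelin (Cnfn), Scel and Sbsn were higher by 1.04, 0.63 and 0.43. Tgm1, the transglutaminase that cross-links the envelope, was lower (-0.39 ± 0.09, adjusted p = 0.0251), as were envoplakin (Evpl, -0.65) and Krtdap (-0.57). At day 3, 2 of the 16 were higher (Asprv1, 1.23, and Krt1, 1.46) and 4 lower, among them Tgm1 (-0.81), Cnfn (-0.71), Krtdap (-0.59) and Sbsn (-0.58).

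Among regulators of epidermal differentiation, 1 of 19 tested was higher and 2 lower at day 6, and 5 were higher and 0 lower at day 3. Of all tested genes, 6.41% were higher and 6.11% lower at day 6, and 7.14% higher and 5.52% lower at day 3. Klf4 read 10.49 and 10.19 in DMSO and 10.59 and 10.51 under CSA at day 6 (adjusted p = 0.295) and was not called at day 3 either (adjusted p = 0.881). The AP-1 subunit gene Fosl1 read 8.58 and 8.23 in DMSO and 9.47 and 9.31 under CSA at day 6 (0.99 ± 0.13, adjusted p = 0.000807), while Jun (-0.53) and Notch1 (-0.63) were lower. At day 3 Ehf (1.19 ± 0.13, adjusted p = 0.000256), Grhl1 (1.13), Prdm1, Jun (0.37) and Fosl2 (0.28) were higher under CSA. Trp63, the master regulator of stratified epithelium, and Gata3 were below the filter.

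Among partners and receptors of S100 proteins, limma called 0 of 5 tested at day 6, 2 of which had an unadjusted p under 0.05. At day 3, 2 of the 5 were higher and 2 lower: Ahnak (0.27) and Tlr4 (1.22), a receptor for calprotectin, were higher, and Anxa1 (-0.26) and Anxa2 (-0.23) lower. Of all tested genes, 7.14% were higher and 5.52% lower at day 3. Ager and Cd36 were below the filter.

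Markers of keratinocyte layers were set beside the envelope genes. Of all tested genes, 6.41% were higher and 6.11% lower at day 6, and 7.14% higher and 5.52% lower at day 3. Of the 7 tested suprabasal markers, 3 were higher at day 6 (Krt1, Sbsn and Dsg1a, 1.18) and 1 lower (Krtdap). Krt1, Sbsn and Krtdap are also among the envelope and cornification genes above, so these are the same calls. The summed log2 signal of the 8 measured suprabasal markers at day 6 was 13.24 to 13.32 in DMSO and 13.33 to 13.44 under CSA. Of the 5 tested basal markers limma called 0 at day 6, 3 of which had an unadjusted p under 0.05, and 2 were higher at day 3 (Krt14, 0.63, and Itgb4, 0.47). The summed log2 signal of the 8 measured basal markers at day 6 was 13.82 to 13.83 in DMSO and 13.71 to 13.79 under CSA. The 3 below the filter were not tested. At day 6 Krt5 read 4.18 and 2.22 in DMSO and 5.93 and 6.21 under CSA. Trp63 read 6.22 and 6.00 in DMSO and 5.60 and 6.23 under CSA, and Krt15 read 3.02 and 2.50 in DMSO and 1.64 and 3.59 under CSA. Of the 8 fibroblast markers 0 were higher and 1 lower at day 6. The part of these markers in the results was not tested.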

How the data were processed

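Gene expression was measured on 8 Affymetrix 3′ arrays, 2 per group. The authors deposited log2 signals for 45037 probe sets, and the submitters' processing notes name MAS5 without a version. RNA was TRIZOL extracted, column purified and labelled by 3′ in vitro transcription, per the labels' protocols. Array dates were not used here, and the number of arrays limits the precision. The platform annotation gave 1 symbol for 34945 probe sets, several for 932 and none for 9160.

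Probe sets at or above the 40th percentile of the mean (5.37, 27022 probe sets) were fitted with limma 3.58.1 in R 4.3.3, 1 mean per group over all 8 arrays (4 residual degrees of freedom), with moderated variances and an intensity trend. Tests were two-sided, Benjamini-Hochberg adjusted over all tested probe sets, threshold 0.05. The fit was tested on simulated data. Same-numbered arrays did not deviate together over the tested probe sets (correlations from -0.003 to 0.034), and the main fit did not pair them. These correlations cannot exclude a pairing, since noise in dim probe sets lowers them. Values in every array are given for up to 6 tested members per sub-family with the smallest p at either day and for the brightest; the members and lists were chosen with earlier results of these data known. Alternatives changed the normalization, filter, prior, low signals, probe sets or arrays in the fit.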

Additional observations from a re-analysis of the deposited data

Results flagged for a closer look

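The CSA effect differed between day 3 and day 6, by the test of that difference in limma, for 11 members. This test contains the day 6 values by which the genes were chosen, so it is no independent evidence, and 0 of the 11 calls held without the intensity trend. The difference, day 6 minus day 3 on the log2 scale, was 3.57 for Lce1d (0.35 at day 3 and 3.92 at day 6), 3.22 for Lce1a2 (-0.26 and 2.95), 2.83 for Lce1a1 (0.33 and 3.16), 2.78 for Lce3b (-0.77 and 2.01) and 2.69 for Lce1f (0.58 and 3.27). It was 1.73 for Crct1 (0.27 and 2.00), 0.78 for Sprr3 (-0.25 and 0.53) and 0.71 for Sprr1a (0.07 and 0.78). It was 0.39 for S100a4 (-0.22 and 0.16), -0.72 for S100a16 (-0.20 and -0.92) and -1.52 for S100a14 (0.69 and -0.83). S100a14 was the member past the threshold in opposite directions at the 2 days. The calls of Sprr3, Sprr1a and S100a4 were lost when no filter was used and in most fits with 1 array left out.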

How the results depend on the processing

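The counts of called members were 2 at day 3, 20 at day 6, 11 for the difference between the days' CSA effects, 8 for the days in DMSO and 19 for the days under CSA. Without the intensity trend they were 0 at day 3 (6 members at an unadjusted p under 0.05), 13 at day 6 and 0 for the difference of effects. With the filter at the 60th percentile, which tested fewer members, they were 10 at day 6 and 8 for the days under CSA. With 1 of the arrays compared left out they ran from 0 to 3 at day 3, from 14 to 18 at day 6, from 6 to 11 for the difference of effects, from 9 to 12 for the days in DMSO and from 13 to 16 for the days under CSA. With the replicate number as a block they were 3, 20, 13, 10 and 20, which is not read as pairing. At day 6 the calls of Crct1, Sprr1a, S100a16, Lce1d, Lce1a1, Lce1f, Lce1a2, Lce3a and Lce3f held under every alternative that gave them a value, among them each day 6 array left out. Those of S100a14, S100a3, Ivl and Lce3b were lost only without the trend (adjusted p from 0.0552 to 0.0723). Without it those of Sprr3, Sprr1b, Lce1h and Lce3c were lost as well (adjusted p from 0.0904 to 0.153), as they were under other alternatives. Causes were not tested.

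Of the values of named members under the alternatives, 1804 kept their side of the threshold, 103 lost a call and 67 gained one. Another 28 changed sign with a call or with a move beyond their standard error, and these were not called in the first place. Smaller changes of sign in values without a call are counted among the 1804. With 1 array left out, the CSA difference at day 3 ran from -0.10 to 0.024 in S100a6, from -0.50 to 0.86 in Lor, from -0.34 to 3.06 in Sprr2d, from -1.54 to 0.25 in Sprr2k, from -0.051 to 0.19 in Sprr1a, from -0.029 to 0.68 in Lce1a1, from -0.82 to 2.22 in Lce1h, from -0.059 to 1.38 in Lce3a and from -1.48 to 0.93 in Lce3c. At day 6 it ran from -0.065 to 0.065 in S100a6 and from -0.095 to 1.51 in Sprr2k. The difference of effects ran from -0.070 to 1.29 in Lor, from -0.31 to 3.095 in Sprr2d and from -0.86 to 2.00 in Sprr2h. The day difference in DMSO ran from -0.13 to 1.23 in Lor, from -0.76 to 2.64 in Sprr2d, from -0.33 to 0.38 in Lce1a1, from -2.47 to 0.57 in Lce1h, from -0.94 to 0.50 in Lce3a and from -1.03 to 2.43 in Lce3c, and under CSA from -0.081 to 0.24 in S100a3 and from -0.46 to 1.34 in Sprr2k. Without probe sets that can read several genes S100a1 turned to 0.032 at day 6 and to 0.15 for the days in DMSO. Quantile normalization turned S100a6 to 0.089 for the days in DMSO and 0.091 under CSA. A floor at 5 turned Sprr2d to -0.050, and averaging probe sets turned Rptn to -0.032, for the days in DMSO. Dim probe sets near background limit all these values.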
